A study of Mus musculus with 4 samples.

Results

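Inhibitory coreceptors are surface proteins that dampen the signal of the T cell receptor once they meet a ligand on a neighbouring cell. Their expression in regulatory T (Treg) cells was described for 8 genes chosen by name, namely Pdcd1, Lag3, Tigit, Cd96, Btla, Havcr2, Cd200 and Cd160, among the 24418 genes of the deposited table. All 8 were found in the table, had reads in every library and passed the filter on low counts. The Treg cells came from spleens and lymph nodes of Foxp3YFP-Cre mice, in which the Foxp3 locus drives a yellow fluorescent protein fused to Cre, and all groups carried this allele. They were sorted as CD4+ YFP+ cells and kept for 3 h with 100 ng/mL thymic stromal lymphopoietin (TSLP), a cytokine of epithelial cells, or with PBS. RNA was sequenced from 2 samples per group (PBS 1, PBS 2, TSLP 1 and TSLP 2). The methods give sex-matched mice of 8 to 12 weeks. The labels and methods used here do not give whether the 2 samples of a group came from separate mice or pools, so the p-values below measure only the spread between these samples, which may be technical. The libraries held 11328132 (PBS 1), 10724392 (PBS 2), 11761234 (TSLP 1) and 10271571 (TSLP 2) reads on genes.

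Most of these proteins belong to a few ligand systems. PD-1, encoded by Pdcd1, binds PD-L1 and PD-L2 and recruits phosphatases through its cytoplasmic tail. TIGIT and CD96 compete with the activating receptor CD226 for CD155. BTLA and CD160 share the ligand HVEM, LAG-3 binds MHC class II, and TIM-3, encoded by Havcr2, is known to bind galectin-9. CD200 is itself a ligand, which acts on cells that carry the CD200 receptor, so that among the 8 it is not a receptor of the cell that expresses it. Activated Treg cells are known to carry several of these proteins, TIGIT and PD-1 among them, while CD160 is better known from NK cells and cytotoxic T cells.

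Of the 8 genes, 4 also lie close together in the genome, which their choice did not use. In the GENCODE M21 annotation of mm10 (GRCm38), Tigit (chr16:43648867-43664146, reverse strand), Btla (chr16:45224315-45257670, forward), Cd200 (chr16:45382135-45409053, reverse) and Cd96 (chr16:46035657-46120251, reverse) lie within 2.47 Mb of chromosome 16, and Cd200r1 lies between Tigit and Btla. The other members lie on other chromosomes, Pdcd1 at chr1:94038305-94052553 (reverse), Lag3 at chr6:124904361-124911705 (reverse), Havcr2 at chr11:46454935-46481255 (forward) and Cd160 at chr3:96798763-96829351 (reverse).

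Because the TSLP receptor signals through STAT5, the promoters of the members were searched for the palindromic STAT motif TTCNNNGAA, in which N is any base and which reads the same on both strands. RefSeq promoters (GRCm38.p6, 250 bases before to 50 after a start) were matched for 7 of the 8 genes, without Lag3, and 8.30% of 32851 promoters of all genes held the motif. It was found once in Cd96, 79 bases before the start, and once in Cd160, 234 bases before the more downstream of its 2 listed starts, and in none of the windows of Pdcd1, Tigit, Btla, Havcr2 and Cd200. A match is a description of the letters and not a site that was shown to be bound. The 2 stretches are shown because they hold the only matches among the members, at chr16:46120259-46120408 for Cd96 and chr3:96814622-96814771 for Cd160, both on the reverse strand, with the motif in capitals.
Cd96: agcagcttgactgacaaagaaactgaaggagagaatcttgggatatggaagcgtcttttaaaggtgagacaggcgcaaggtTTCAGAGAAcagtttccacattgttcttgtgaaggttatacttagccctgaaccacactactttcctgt
Cd160: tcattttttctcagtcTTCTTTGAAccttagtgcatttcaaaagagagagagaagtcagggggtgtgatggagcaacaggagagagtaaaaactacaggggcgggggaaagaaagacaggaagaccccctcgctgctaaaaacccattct

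Before the coreceptors were compared, the libraries were examined for their identity. Foxp3, the lineage factor of Treg cells, had a normalized count (reads after division by the size factor of their library) of 2437 in PBS 1 and 5068 in PBS 2, and of 4507 and 5041 with TSLP. Cd4 ranged from 5626 to 6463 and Cd3e from 2548 to 2804, so the labelled cell type had its defining markers in every library, with Foxp3 lowest in PBS 1. Ikzf2 (Helios) and Ikzf4 (Eos), which are transcription factors of Treg cells, were also lowest in PBS 1, at 6234 and 798. The log2 ratio of a library to the other 3 also went with exon length over 2679 genes, which are not replicates of each other, with a Spearman rho of −0.657 for PBS 1, 0.569 for PBS 2, 0.399 for TSLP 1 and 0.303 for TSLP 2. With TSLP all 6 Treg and T cell markers had a higher mean (median log2 fold change of 0.28), where 51.25% of all genes tested did so. Both TSLP values exceeded both PBS values for 1 of the 6, Il2ra, where 14.5% of all genes tested did so. Its normalized counts were 3753 and 4784 with PBS and 4802 and 5343 with TSLP (log2 fold change of 0.26). The log2 fold change of Foxp3, 0.44, turned to −0.09 without PBS 1. For Ikzf4, PBS 2 (1873) lay above both TSLP values (1576 and 1450). For Ikzf2, PBS 2 (10473) lay between the TSLP values (11036 and 10227), as it did for Cd4 and Cd3e. For the coreceptors, and for the 5 lists of related genes and most of their genes described below, values without PBS 1 are therefore given as well.

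Of other cells that can carry these coreceptors, NK, CD8 T and B cells had markers at low levels. The 4 NK cell markers summed to 0.706 (PBS 1), 0.839 (PBS 2), 1.70 (TSLP 1) and 2.53 (TSLP 2) CPM, the reads of a gene scaled to the total of its library, with Klrb1c the most abundant, and Ncr1 and Klrd1 had no reads in any library. The CD8 T cell markers Cd8a and Cd8b1 summed to 13.4, 7.83, 8.84 and 11.97 CPM in the same order, mostly from Cd8b1. The 4 B cell markers, led by Cd79b, summed to 0.618, 10.4, 5.02 and 9.35, and were lowest in PBS 1. The 6 myeloid and dendritic cell markers summed to 46.3, 33.9, 36.2 and 40.9, mostly from Cst3, which many cells express, and Adgre1 had no reads. Within this list Itgam, the gene of CD11b, had 23 (PBS 1), 19 (PBS 2), 4 (TSLP 1) and 7 (TSLP 2) reads (log2 fold change of −1.78, unadjusted p = 0.236 by limma), and Lyz2, the gene of lysozyme, had 1 read in PBS 1 and 43, 37 and 40 in the other libraries. Among markers of follicular T cells, which carry PD-1, the sum was 317, 340.3, 332 and 293, led by Bcl6. Cxcr5 had normalized counts from 91.1 to 205, with overlapping groups (log2 fold change of 0.56). Sh2d1a had 1372 and 1057 with PBS and 957 and 1048 with TSLP (log2 fold change of −0.27, unadjusted p = 0.296 by limma). Both TSLP values lay below both PBS values for this 1 of 3 tested genes, where 14.4% of all genes tested did so. The part of such cells in the values below was not tested. In bulk RNA, fewer cells of a type and less RNA per cell cannot be told apart.

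The 8 genes spanned a wide range of levels. Per exon length, Pdcd1 and Tigit stood highest, Cd160 lowest, and the mean of Pdcd1 was 178.9 times that of Cd160. As RPKM (reads per kb of merged exons, scaled to the reads on genes of a library), Pdcd1 had a mean of 229.8 ± 20.9 (SD over the 4 libraries) and Tigit 212.7 ± 33.2. They ranked 119 and 129 among 10944 tested genes with a known exon length. Pdcd1 was above Tigit in both replicate 1 libraries and below it in both replicate 2 libraries, so the order of the top pair was not set beyond their spread. Btla followed with 48.4 ± 4.26, then Cd96 with 33.9 ± 11.9 and Cd200 with 26.6 ± 2.12. Btla lay above Cd96 in every library, although in TSLP 2 the values were 49.8 and 49.2, and Cd96 lay above Cd200 in 3 of 4. These 3 genes had levels above 18.7, the upper quartile of the tested genes. Havcr2, with 6.86 ± 1.41, was near the median of the tested genes (6.98), and Lag3, with 4.65 ± 2.49, was below it. Lag3 exceeded Havcr2 only in TSLP 2 among the 4 libraries. Cd160 had 1.28 ± 0.411, under the lower quartile of 2.04. The order depended on the length chosen, since with the mean length of annotated transcripts only 3 of the 8 genes kept their place and Cd200 moved from place 5 to place 3. Cd200 has 11 annotated transcripts with a mean length of 912.7 bases, against 3321 bases of merged exons.

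**Figure D1:**
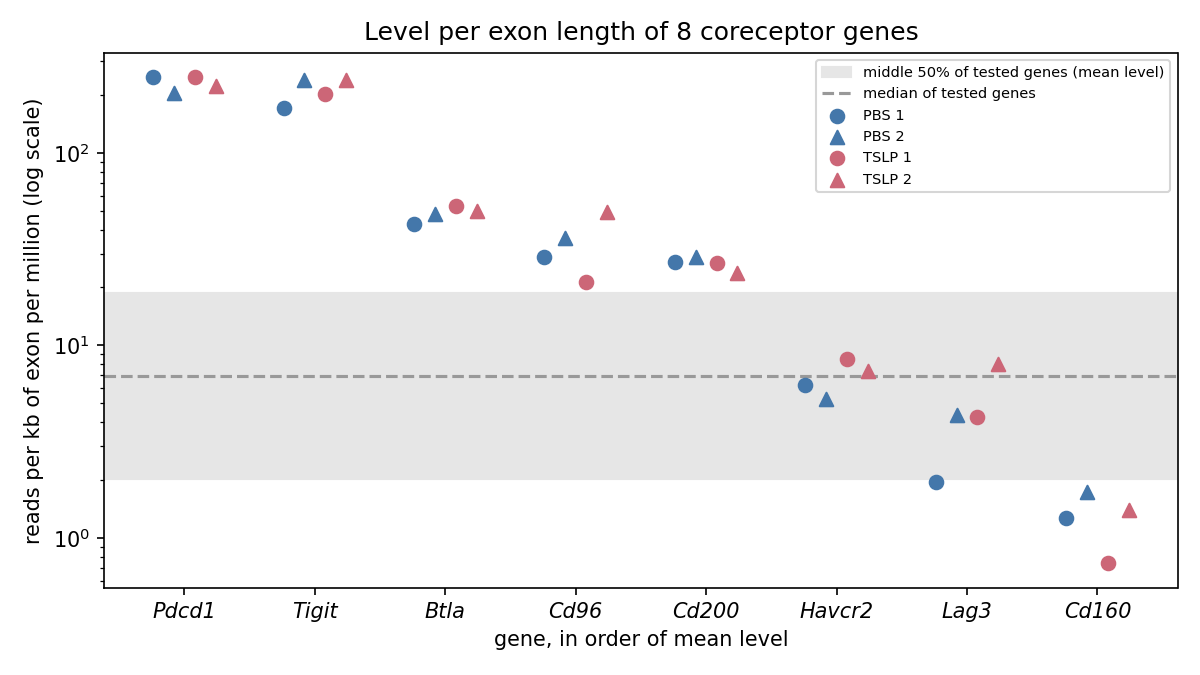
Level of each coreceptor gene in each library, as RPKM on a log scale, with the genes in order of their mean. Points are libraries, the grey band spans the middle 50% of the mean levels of 10944 tested genes (2.04 to 18.7) and the dashed line is their median; 5 genes lie above the band, Havcr2 within it, Lag3 within it except in PBS 1, and Cd160 below it.

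To ask whether TSLP altered the coreceptors, a limma model of log2(normalized count + 1) was fitted to 11392 genes. With TSLP 6 of the 8 genes had a higher mean and 2 a lower one, but 0 of the 8 passed an adjusted p of 0.05, against 0% of all genes tested. Corrected over all genes (Benjamini-Hochberg), limma gave each of the 8 an adjusted p of 0.9999. An unadjusted p under 0.05 was found for 0 of the 8 by limma, edgeR and DESeq2, and for 1.69% of all genes tested by limma. edgeR and DESeq2, likewise corrected, each called 0 genes at this threshold and had 234 genes with an unadjusted p below it. For Btla, Havcr2 and, under the deposited size factors and TMM but not under the library total, Lag3, 3 of 8, both TSLP values exceeded both PBS values, where 14.5% of all genes tested did so. They lay below for Cd200, 1 of 8, where the share of all genes was 14.4%. The median log2 fold change of the 8 genes was 0.10, against 0.01 over all genes tested, without PBS 1 it was 0.00, and with the trend over exon length removed from each library it was 0.17. With 2 libraries against 2, an exact permutation test of a single gene cannot give a two-sided p below 0.333. Fold changes are on the log2(normalized count + 1) scale, on which genes with few reads change less than their counts.

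**Figure D2:**
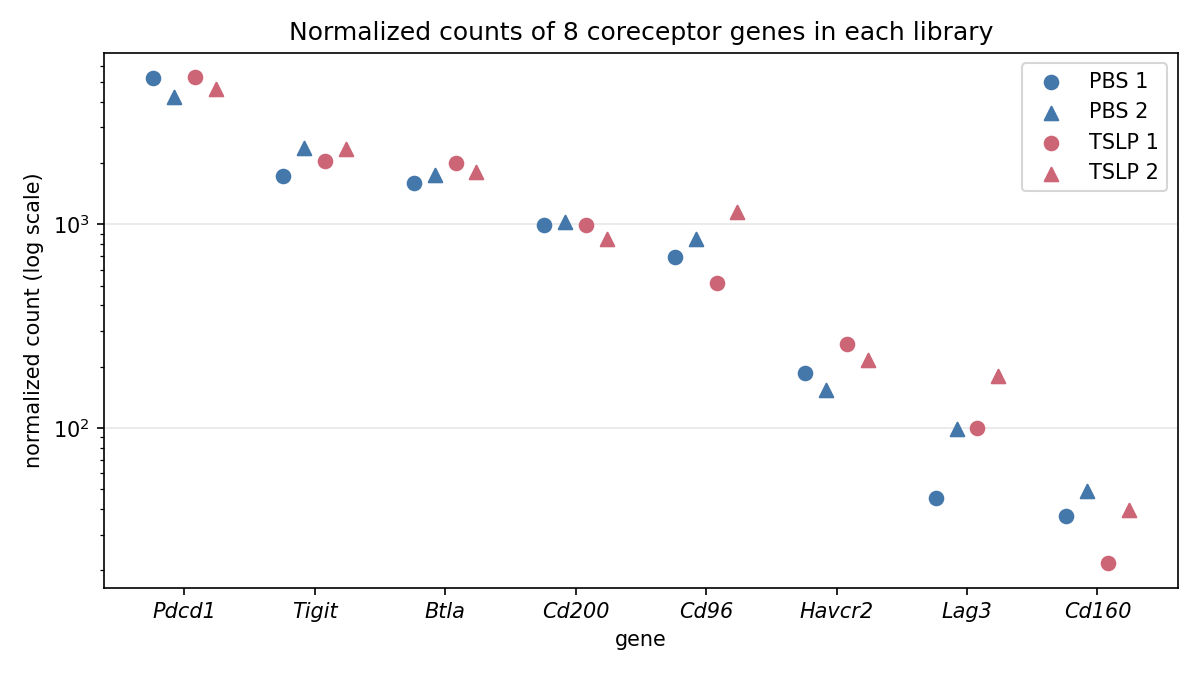
Normalized count of the 8 coreceptor genes in each of the 4 libraries (log scale), in order of their mean count. Circles and triangles mark replicates 1 and 2; the TSLP points lie above both PBS points for Btla, Havcr2 and, by less than 1 normalized count, Lag3.

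In the PD-1 system, the receptor and both ligands had reads in every library. The normalized count of Pdcd1 was 5228 and 4216 with PBS and 5273 and 4607 with TSLP, for replicates 1 and 2. The groups overlapped, and the replicate 1 library was the higher one in each group. Its log2 fold change was 0.07 (95% interval −0.45 to 0.59, unadjusted p = 0.766 by limma), and it took the opposite sign without PBS 2 (−0.09) or without TSLP 1 (−0.03) and was 0.23 without PBS 1 and 0.14 with the length trend removed. Cd274, which encodes the ligand PD-L1, had 1559 and 1798 with PBS and 2062 and 1912 with TSLP. Its groups did not overlap, and the log2 fold change was 0.25 ± 0.22 (standard error), with an unadjusted p of 0.283 by limma. It was 0.14 without PBS 1 and 0.35 without PBS 2. Pdcd1lg2, the gene of PD-L2, was read at 139, 258, 236 and 226, a spread within PBS that was wider than the difference of the means.

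Both inhibitory receptors for CD155 differed more between libraries than between groups. Tigit had normalized counts of 1720 (PBS 1), 2367 (PBS 2), 2055 (TSLP 1) and 2351 (TSLP 2). PBS 1 was the low library and the other 3 lay within the range of 2055 to 2367. For Tigit the log2 fold change of 0.12 (95% interval −0.42 to 0.66, unadjusted p = 0.618 by limma) turned to −0.11 without PBS 1 and was 0.26 with the length trend removed. Cd96 had 693 and 849 with PBS and 515 and 1154 with TSLP, so that the TSLP libraries held both the lowest and the highest value of this gene. Its log2 fold change was 0.01 (95% interval −0.82 to 0.84, unadjusted p = 0.985 by limma), and it ran from −0.57 without TSLP 2 to 0.59 without TSLP 1, with −0.14 without PBS 1 and 0.07 with the length trend removed. Cd226, the activating counterpart, had 241, 503, 308 and 340 in the order PBS 1, PBS 2, TSLP 1 and TSLP 2. Both TSLP values of Cd226 lay between its PBS values, with a log2 fold change of −0.11, or −0.64 without PBS 1. Per exon length Tigit exceeded Cd226 by a factor of 37.9 and 25.03 with PBS and by 35.5 and 36.8 with TSLP, and PBS 2 stood apart through its high Cd226. The 4 coreceptor genes on chromosome 16 did not share a sign, with log2 fold changes of 0.12 for Tigit, 0.18 for Btla, −0.14 for Cd200 and 0.01 for Cd96. Pvr, which encodes the ligand CD155, also had reads in these libraries, at normalized counts of 1059, 903, 1112 and 961, again higher in replicate 1 of each group.

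Of the receptors for HVEM, Btla was abundant and Cd160 was under the lower quartile of the tested genes per exon length. Btla had normalized counts of 1593 and 1755 with PBS and of 1992 and 1814 with TSLP. The groups did not overlap, but the gap between PBS 2 and TSLP 2 was small beside the spread within a group. A log2 fold change of 0.18 was estimated (95% interval −0.30 to 0.67, unadjusted p = 0.411 by limma), which stayed positive on leaving out each library, from 0.12 (without PBS 1) to 0.25. Cd160 had 38 (PBS 1), 49 (PBS 2), 23 (TSLP 1) and 38 (TSLP 2) reads, or normalized counts of 36.8, 49.0, 21.7 and 39.7. TSLP 1 was lowest, and its 95% Poisson interval of 14.6 to 34.5 reads, which covers counting error only, overlapped that of PBS 1 (26.9 to 52.2) but not that of PBS 2 (36.3 to 64.8). For Cd160 the log2 fold change was −0.52 with a 95% interval of −2.39 to 1.36 (unadjusted p = 0.548 by limma), and it ran from −0.94 without TSLP 2 to −0.10 without TSLP 1, with −0.72 without PBS 1. Cd160 also shares 68 exonic bases with Pdzk1 on the opposite strand, and the strand setting of the counting was not given in the sources used here. Tnfrsf14, which encodes HVEM, had normalized counts of 168 and 324 with PBS and 188 and 225 with TSLP, with both TSLP values between the PBS values.

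Lag3 and Havcr2, the less abundant coreceptors that are also known from exhausted T cells, had the largest positive fold changes among the 8 genes. Lag3 had 47 (PBS 1), 99 (PBS 2), 106 (TSLP 1) and 173 (TSLP 2) reads. Its normalized counts were 45.6 and 99.1 with PBS and 99.9 and 181 with TSLP, so that PBS 2 and TSLP 1 were nearly equal, PBS 1 was low and TSLP 2 was high. Scaled by the library total instead, PBS 2 lay above TSLP 1 (101.7 against 99.3) and the groups overlapped. The 95% Poisson intervals of the reads in PBS 1 (34.5 to 62.5) and PBS 2 (80.5 to 121), which cover counting error only, did not overlap. Between the groups Lag3 differed by 0.99 ± 0.61 (standard error) on the log2 scale, with a 95% interval of −0.38 to 2.36 and an unadjusted p of 0.137 by limma, and by 0.44 without PBS 1 or 1.54 without PBS 2. Havcr2 was tighter, with normalized counts of 186 and 154 with PBS and of 257 and 216 with TSLP. Its groups did not overlap under any of 3 scalings (the deposited size factors, the trimmed mean of M values or TMM, and the library total). Havcr2 differed by 0.48 ± 0.38 (standard error) on the log2 scale, with a 95% interval of −0.38 to 1.33 and an unadjusted p of 0.239 by limma, and by 0.34 to 0.61 on leaving out each library, the highest without PBS 1. Over 17 settings (the fit described above and 16 alternatives to it, by limma, edgeR or DESeq2) the unadjusted p ranged from 0.0705 to 0.529 for Lag3 and from 0.156 to 0.523 for Havcr2, and the adjusted p from 0.337 to 1 and from 0.665 to 1. Lgals9, which encodes galectin-9, had normalized counts of 716, 580, 525 and 653 in PBS 1, PBS 2, TSLP 1 and TSLP 2, with overlapping groups.

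Cd200 was the steadiest of the 8 genes in the PBS group. It had normalized counts of 991 and 1025 with PBS and 988 and 844 with TSLP. TSLP 2 was the low library, while TSLP 1 lay only just under PBS 1. The fold change was −0.14 on the log2 scale (95% interval −0.66 to 0.38, unadjusted p = 0.557 by limma), and it was −0.03 without TSLP 2 and −0.17 without PBS 1. Cd200r1, which encodes the CD200 receptor, was also read in these cells, at 220 and 159 with PBS and 275 and 278 with TSLP. Its TSLP values were the higher ones, by 0.56 ± 0.37 (standard error) on the log2 scale, with an unadjusted p of 0.159 by limma, and by 0.79 without PBS 1.

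**Figure D3:**
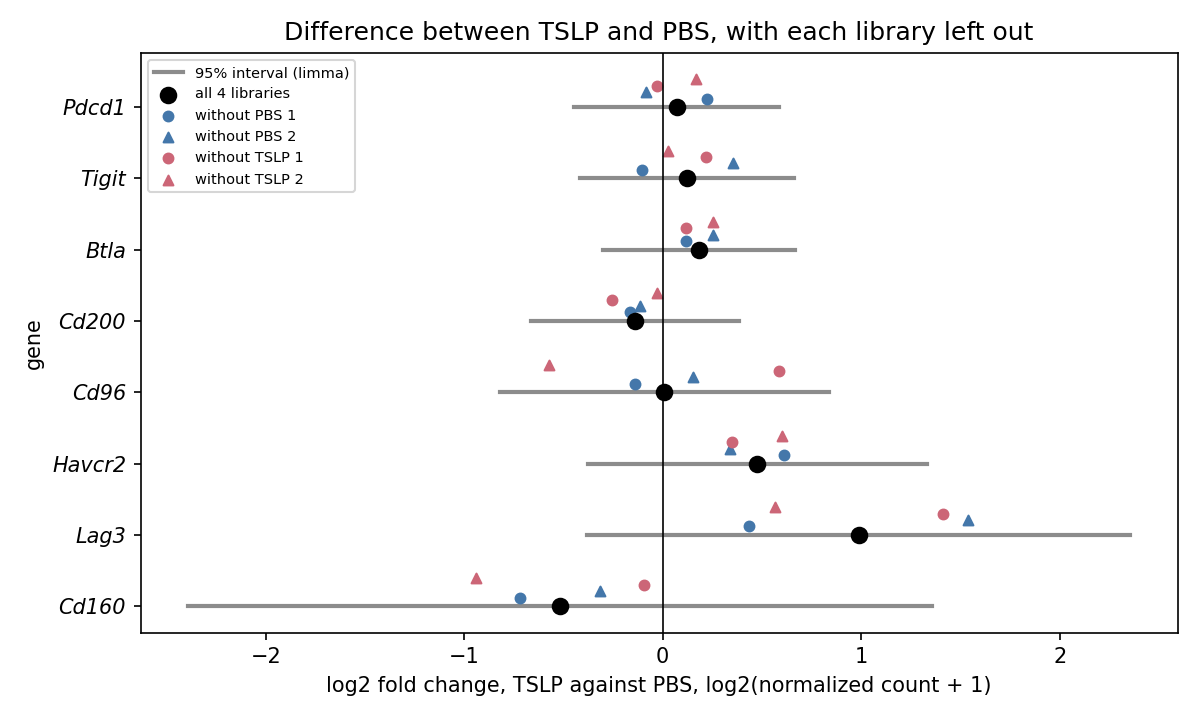
Log2 fold change between TSLP and PBS for each coreceptor gene on the log2(normalized count + 1) scale. Black points use all 4 libraries, grey bars are 95% intervals by limma and coloured points leave out 1 library; every interval crosses 0, and Cd96 runs from −0.57 to 0.59 with the library left out.

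Added together, the 8 genes took up 10494 and 10514 normalized counts with PBS and 11201 and 11207 with TSLP, between 0.0956% and 0.104% of the reads on genes in each library. Pdcd1 made up 49.8% and 40.1% of this sum with PBS and 47.1% and 41.1% with TSLP, and the sum carries no test. Within each group the sums of normalized counts were nearly equal, while Pdcd1 was lower in replicate 2. Scaled by the library total, the sums were 956 (PBS 1), 980 (PBS 2), 1011 (TSLP 1) and 1044 (TSLP 2) CPM. The near-equality within a group thus held under the deposited size factors and not under the library total. In the replicate 2 libraries Tigit, Cd96, Lag3 and Cd160 were higher than in the replicate 1 library of the same group, and Pdcd1 and Havcr2 were lower. The numbers of the replicates are not known to stand for a shared mouse or day. The genes with a pattern over the 4 libraries most like that of Pdcd1 were Adck3, Stk17b and Rab33b, out of 8173 other genes with a mean normalized count of at least 100. Their profiles differed from that of Pdcd1 by a root mean square of 0.00930, 0.0104 and 0.0137 on the log2 scale, and over only 4 libraries this is a description.

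**Figure D4:**
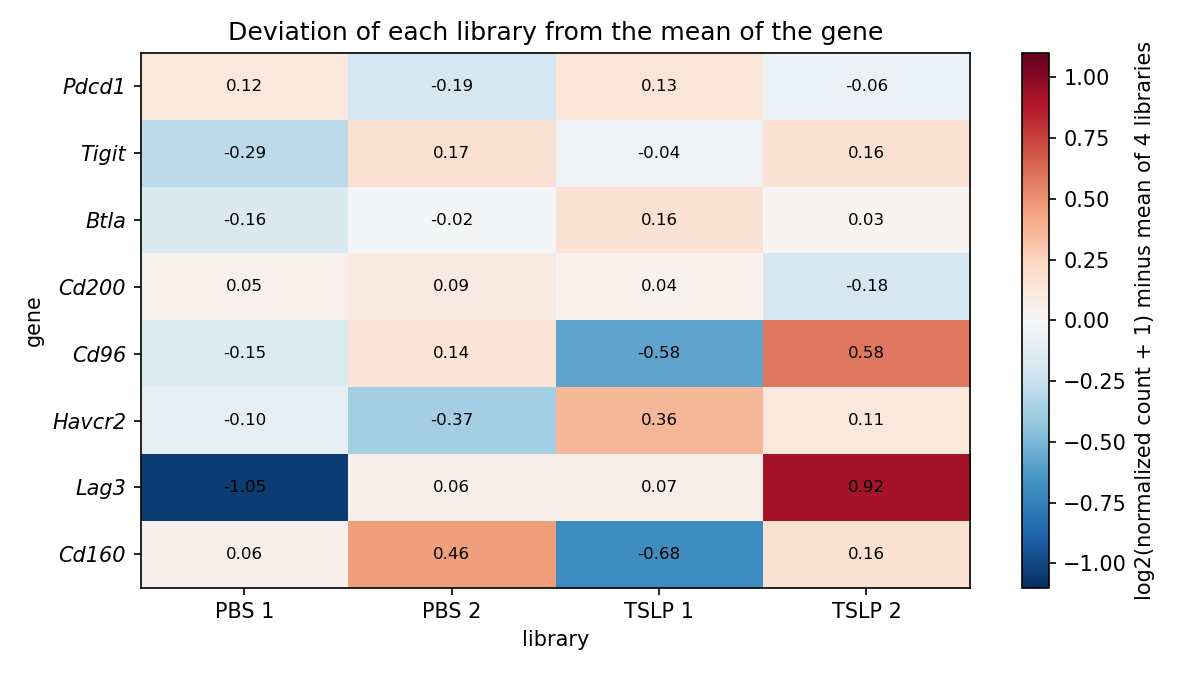
Deviation of each library from the mean of the 4 libraries, per gene, as log2(normalized count + 1). Red is above and blue below the mean of the gene; Lag3 runs from −1.05 in PBS 1 to 0.92 in TSLP 2, and Cd96 from −0.58 in TSLP 1 to 0.58 in TSLP 2.

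Genes that work with the coreceptors were examined in 5 lists. Of 13 genes for ligands and partners 10 were tested, 4 higher and 6 lower with TSLP, with a median log2 fold change of −0.13. Of 11 genes for other inhibitory receptors 9 were tested, 5 higher and 4 lower, with a median of 0.02. All 3 costimulatory counterparts were tested (2 higher, 1 lower, median 0.11), as were all 10 intracellular partners (5 higher, 5 lower, median −0.02) and all 11 transcriptional regulators (8 higher, 3 lower, median 0.06). Of these list genes, limma and DESeq2 gave 0 an unadjusted p below 0.05 and edgeR gave it to 1, Prdm1. Over all 11392 genes tested, such a p was found for 192 by limma and for 234 each by edgeR and DESeq2. Among all genes tested, 5838 were higher and 5554 lower. Without PBS 1 the medians, in the order of the lists above, were −0.01, 0.08, −0.07, −0.01 and −0.01, and 5 regulators were higher and 6 lower. Of the ligands and partners tested, 2 of 10 had both TSLP values above both PBS values (Cd274 and Cd200r1) and 1 of 10 below (Pvrl2), where 14.5% and 14.4% of all genes tested did so.

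Ctla4 was the most abundant gene of these lists. This receptor, which takes CD80 and CD86 from antigen-presenting cells, had normalized counts of 14097 and 12251 with PBS and 13275 and 13450 with TSLP. The groups overlapped, and per exon length Pdcd1 reached 0.448, 0.415, 0.480 and 0.413 of Ctla4 in PBS 1, PBS 2, TSLP 1 and TSLP 2. Cd5 and Cd6, which temper the T cell receptor signal, had mean normalized counts of 10230 and 8231 with PBS and 10369 and 7751 with TSLP. The tested genes of this list with no overlap were Cd101 (log2 fold change of 0.34), Pecam1 (−0.32) and 4632428N05Rik, an older symbol of Vsir, which encodes VISTA (−0.08), at 0.45, −0.23 and −0.05 without PBS 1. These are 1 of 9 above and 2 of 9 below, where the shares of all genes tested were again 14.5% and 14.4%. Cd244 and Cd300a had no reads in any library, which allows up to 3 reads, or 0.255 to 0.292 CPM, for each by the one-sided 95% limit of a count of 0.

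The costimulatory receptors Cd28 and Icos were expressed at 7187 ± 1325 and 7193 ± 389 (SD, n = 2) with PBS and at 7735 ± 734 and 7769 ± 373 with TSLP. Both differences were smaller than the standard errors from limma, 0.24 and 0.22 on the log2 scale, and the groups of Icos did not overlap (0.11, or 0.17 without PBS 1). Thus 1 of 3 costimulatory genes lay above and 0 below, where the shares of all genes tested were 14.5% and 14.4%. Cd28 turned from 0.11 to −0.07 without PBS 1. Among the intracellular partners, Fyn, Lck and Bag6 were the most abundant, with log2 fold changes of 0.01, −0.05 and −0.08. Without PBS 1 these were 0.01, 0.07 and −0.17. Ptpn6 and Ptpn11, which encode the phosphatases SHP-1 and SHP-2 that act behind PD-1 and BTLA, had 0.23 and 0.05 (0.02 and −0.16 without PBS 1), and their groups overlapped. Dok1 was the only intracellular partner tested with no overlap (0.46, unadjusted p = 0.170 by limma), at 0.31 without PBS 1, so that 1 of 10 lay above and 0 below, where the shares of all genes tested were 14.5% and 14.4%.

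Among the regulators, Prdm1, which encodes Blimp-1 and is known to promote several coreceptor genes in T cells, had the largest fold change. Its normalized counts were 178 and 236 with PBS and 308 and 396 with TSLP, and the groups did not overlap. Prdm1 differed by 0.76 ± 0.35 (standard error) on the log2 scale, with an unadjusted p of 0.0569 and an adjusted p of 0.9999 by limma. By limma, edgeR or DESeq2 in 17 settings, its unadjusted p lay between 0.0449 and 0.285, 4 of them under 0.05, and its adjusted p between 0.2999 and 1. Without PBS 1 the difference was 0.56 on the log2 scale. Maf, which acts together with Blimp-1 on such genes, had 2033, 1659, 1781 and 1879. Its log2 fold change was −0.01, or 0.14 without PBS 1. Irf4 was higher in both TSLP libraries (3935 and 4469 against 4829 and 5005, log2 fold change of 0.23) and Batf was lower in both (620.3 and 426 against 334 and 410, −0.47), with unadjusted p = 0.315 and 0.161 by limma, and at 0.14 and −0.20 without PBS 1. Tcf7, Irf4 and Nfatc1 were the most abundant regulators, and Tox, which is linked to PD-1 expression in exhausted cells, had a log2 fold change of 0.06, or 0.04 without PBS 1, with no overlap. Tbx21, which encodes T-bet, also had no overlap (−0.10, or −0.17 without PBS 1). In all, 3 of 11 regulators lay above (Prdm1, Irf4 and Tox) and 2 of 11 below (Batf and Tbx21), where the shares of all genes tested were 14.5% and 14.4%.

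**Figure D5:**
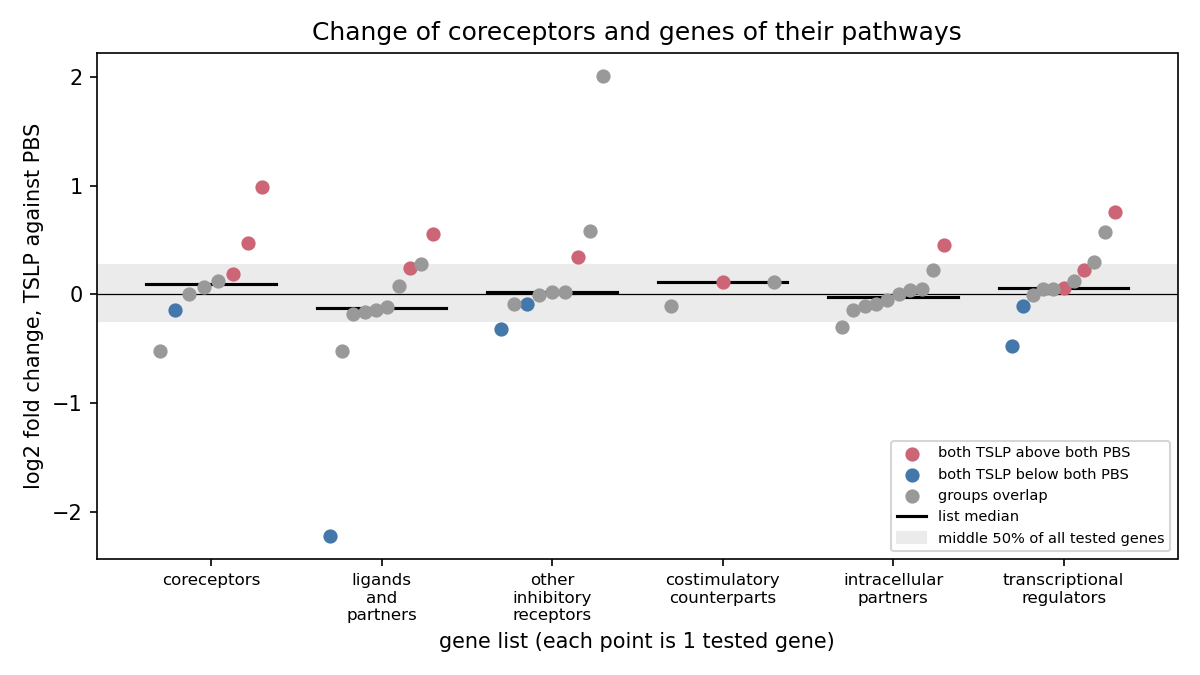
Log2 fold change of each tested gene in the coreceptor list and in 5 lists of related genes (1 point per gene, black bars are medians, the grey band is the middle 50% of all tested genes, −0.25 to 0.27). Red and blue points are genes whose groups did not overlap; most points lie in or near the band, and the 2 most distant ones, Lair1 and Pvrl2 (2.01 and −2.22, or 0.11 and −2.33 without PBS 1), had at most 20 reads in any library.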

How the data were processed

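RNA was sequenced from 4 libraries of sorted Treg cells. The authors used Hisat2 to map 50-base single-end reads to mm10 and HTSeq for gene counts. What they deposited is a normalized signal, in which each library was scaled by its DESeq2 size factor (0.957 to 1.06). The gene annotation is not given in the sources used here. Every value lay within 0.01 of a whole multiple of a step per library, which gave the reads back. Of the gene names, 27 had turned into dates.

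Genes that reached a normalized count of 10 in 2 or more libraries were compared with limma 3.58.1 (R 4.3.3, empirical Bayes with a trend) on log2(normalized count + 1), with Benjamini-Hochberg adjustment over 11392 genes. edgeR 4.0.16 (quasi-likelihood, TMM) and DESeq2 1.42.0 were run on the reads as alternatives and called 0 genes each at an adjusted p under 0.05. The code was tested on simulated data. Exon lengths came from GENCODE M21, in which 23307 of 24418 names had a unique length, and promoters from RefSeq (GRCm38.p6). Other alternatives were limma voom, other scalings, filters and pseudocounts, a replicate block, removal of the trend over exon length, and leaving out each library.

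The 8 genes and the lists were chosen with earlier results of these data known. Genes named are the members, the 3 most abundant of each list, and list genes with an unadjusted p under 0.05 or with no overlap and a log2 change of at least 0.5. Partners of a described member, and the genes without overlap or reads, were named after their values were seen. The result of 1 further marker list is not reported here.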

Additional observations from a re-analysis of the deposited data

How the results depend on the processing

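Under all 16 alternatives limma, edgeR or DESeq2 called 0 genes at an adjusted p below 0.05, and 0 of the 8 coreceptor genes had an unadjusted p under 0.05. The number of all genes with an unadjusted p under 0.05 (192) was 427 by limma without a trend and 358 without a filter, and from 79 (without TSLP 2) to 1858 (without PBS 2) on leaving out a library. The library that is then alone in its group is assumed to vary like those of the other group. With all 4 libraries, an unadjusted p under 0.05 was found for 234 of 11392 genes by edgeR and 215 of 11392 by limma voom. With a minimum of 50 it was found for 193 of 9437 by limma. Of the genes in the 5 related lists, 1, Prdm1, had an unadjusted p under 0.05 by edgeR, by limma voom and with a minimum of 50, against 0 by limma, and on leaving out a library 0 to 5 had it, 5 of them without PBS 2 (Batf, Grb2, Lair1, Lilrb4a and Prdm1, chosen after their values were seen). From 4 (without PBS 1) to 5 of the 8 genes were higher with TSLP on leaving out a library, and their median log2 fold change was 0.00 to 0.20. The order of levels kept 3 of 8 places with the mean transcript length.

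Lag3, Btla, Havcr2, Cd200 and Cd160 kept their direction under every alternative that gave a value. Cd160 did not reach the minimum of 50 and has no value there. Cd96 turned to −0.0068 by limma voom, and on leaving out a library it ran from −0.57 to 0.59. Pdcd1 ran from −0.0851 to 0.23 and Tigit from −0.11 to 0.35 in this way. In these changes of sign the cause was not tested. With the replicate number as a block, 258 genes had an unadjusted p under 0.05 against 192 without it. The same number does not mark a known pairing, and the deviations of PBS 1 and TSLP 1 from their group means had a correlation of 0.000720 across genes. The standard error of Cd160, which had 23 to 49 reads per library, was 0.83 by limma and 0.41 by limma without a trend.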

Other observations

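Between the start of Tigit and the end of Cd96 on chromosome 16, 17 of 32 genes in the table passed the filter on low counts. The mean was higher with TSLP for 8 and lower for 9, the median change was −0.03 on the log2 scale, and 0 had an unadjusted p under 0.05 by limma. Beside the 4 coreceptor genes and Cd200r1, this stretch holds Plcxd2, a phospholipase family gene with a mean normalized count of 5867 and a log2 fold change of 0.40 (unadjusted p = 0.196 by limma), and Zdhhc23, a palmitoyltransferase gene with a mean of 394 and a log2 fold change of 0.63 (unadjusted p = 0.160 by limma). Both were chosen after their values were seen.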
